A study of Mus musculus with 9 samples.

Results

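The 10 genes described here are named for heat production and for the uncoupling of mitochondria, and were chosen by name: *Ucp1*, *Ucp2*, *Cidea*, *Ppargc1a*, *Ppargc1b*, *Dio2*, *Prdm16*, *Ppara*, *Ckb* and *Gatm*. All 10 were found among the 56748 genes of the count table, and 9 of them were among the 18510 genes with enough reads to be tested. RNA was sequenced from epididymal adipose tissue, a visceral white fat depot, of wild-type male C57BL/6J mice that began high-fat diet (HFD) at 8 weeks of age. The 3 mice called Pre had received HFD for 8 weeks. The 3 mice called WL1 then received standard diet (SD) for 1 week, and the 3 called WL2 received it for 2 weeks, so that these 6 mice lost weight. Each phase came from different mice, those of WL1 and WL2 were older than those of Pre, and diet phase and age cannot be told apart. The labels give 3 samples a phase as replicates and no litter or day.

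Brown and beige adipocytes burn fuel to make heat. Noradrenaline acts on beta-adrenergic receptors and raises cAMP, deiodinase makes active thyroid hormone within the cell, and the uncoupling protein UCP1 lets protons back into the mitochondrial matrix without making ATP. PRDM16 and the PGC-1 coactivators set up this program, and PPAR-alpha is a nuclear receptor that turns on fatty acid oxidation. A second route does not need UCP1: creatine, made with the enzyme GATM, is phosphorylated and dephosphorylated in a cycle in which creatine kinase B takes part. White fat of the epididymal depot holds few thermogenic adipocytes in mice. UCP2 has a different distribution from UCP1 and is abundant in macrophages and other immune cells.

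The libraries held between 16434450 and 22729072 counted reads, so that 1 CPM (reads scaled to library size, with the TMM factor applied) stood for 17.0 to 21.8 reads. The tissue carried adipocyte transcripts throughout, and the summed level of 10 adipocyte genes was 29521 to 37411 CPM at Pre, 20926 to 27493 CPM at WL1 and 30699.9 to 33714 CPM at WL2. In such bulk samples, fewer cells of a type and less RNA per cell cannot be told apart. Transcripts of the neighbouring epididymis stayed at or below 0.461 CPM in sum over 6 genes. Hepatocyte genes, which should be absent from fat, reached 98.8 CPM in sum at Pre and 93.1 CPM at WL1 but at most 7.06 CPM at WL2. Lymphocyte genes summed to 163 CPM in Pre replicate 2 and to at most 14.7 CPM in any other library.

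The 10 genes differed widely in level. Compared per length, as FPKM at Pre, *Ucp2* was the most abundant (61.9 to 100.4 FPKM over the 3 libraries) and *Ckb* came next (39.0 to 56.3 FPKM). *Gatm* (2.52 to 6.13 FPKM) and *Cidea* (1.48 to 2.88 FPKM) followed with overlapping ranges, and *Cidea* overlapped *Prdm16* (1.14 to 1.56 FPKM). *Ppargc1b* (0.467 to 0.665 FPKM), *Ppara* (0.316 to 0.619 FPKM) and *Ppargc1a* (0.289 to 0.402 FPKM) overlapped their neighbours in this order. *Dio2* (0.0861 to 0.182 FPKM) and *Ucp1* (0 to 0.0795 FPKM) were lowest. The thermogenic regulators were therefore measured with few reads, whereas *Ucp2* and *Ckb* were measured with at least 1672 reads in each library.

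**Figure D1:**
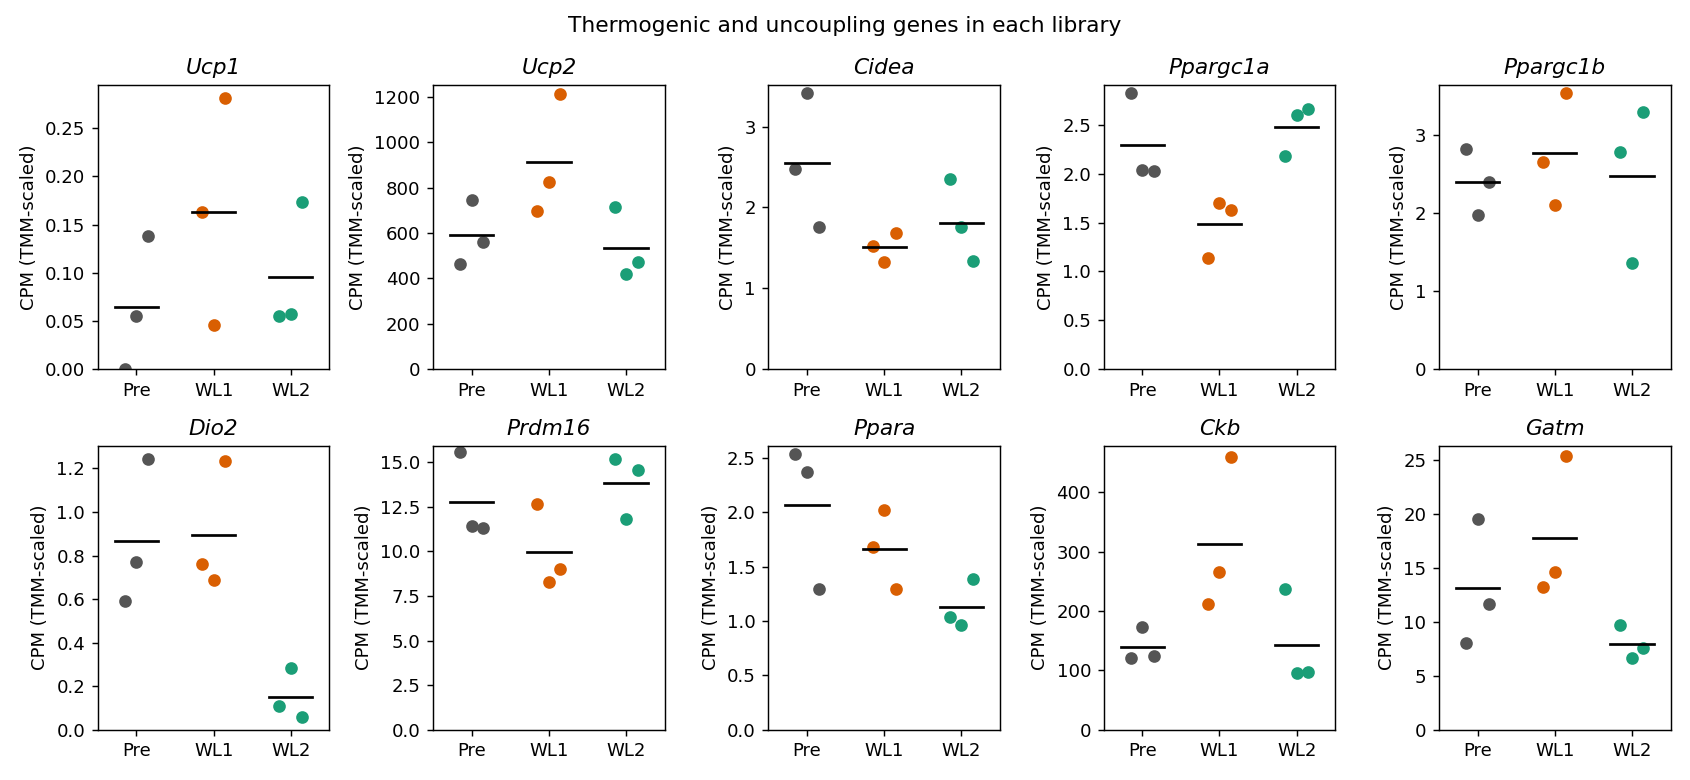
Level of each of the 10 genes in each library, in CPM on a linear axis starting at 0 and scaled separately for each gene. Points are the 3 libraries of Pre, WL1 and WL2, set side by side within a phase in the order of their replicate numbers, and black lines are the means. *Dio2* lies between 0.0579 and 0.283 CPM at WL2, under every Pre and WL1 library, and *Ucp2*, *Ckb* and *Gatm* share their highest library at WL1.

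One of the 9 tested genes passed the threshold in any comparison. This was *Dio2*, lower at WL2 than at Pre. The test was edgeR's quasi-likelihood test over all 18510 genes, with Benjamini-Hochberg adjusted p-values and a threshold of 0.05. At WL1 against Pre, 0 of the 9 passed (3 had an unadjusted p under 0.05, and DESeq2 and limma each called 0), beside 7.29% of all genes (2.60% higher and 4.69% lower). At WL2 against Pre, 1 of 9 passed, beside 10.01% of all genes (3.35% higher and 6.66% lower), which is near the background share. At WL2 against WL1, 0 of 9 passed (6 had an unadjusted p under 0.05, DESeq2 called 3 and limma 0), beside 3.68% of all genes (1.31% higher and 2.37% lower). An unadjusted p under 0.05 was reached by 24.3%, 26.0% and 21.4% of all genes in the 3 comparisons. The libraries of the 2 phases did not overlap for 3, 1 and 3 of the 9 genes, beside 28.7%, 30.9% and 30.3% of all genes. The median log2 fold change of the 9 was 0.028 at WL1 against Pre, -0.14 at WL2 against Pre and -0.56 at WL2 against WL1, beside medians of 0.021, 0.0084 and -0.0014 over all genes. The comparisons share libraries, so their values are not independent of each other. The shares of all genes called higher and lower also belong beside the counts in each gene list below.

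**Figure D2:**
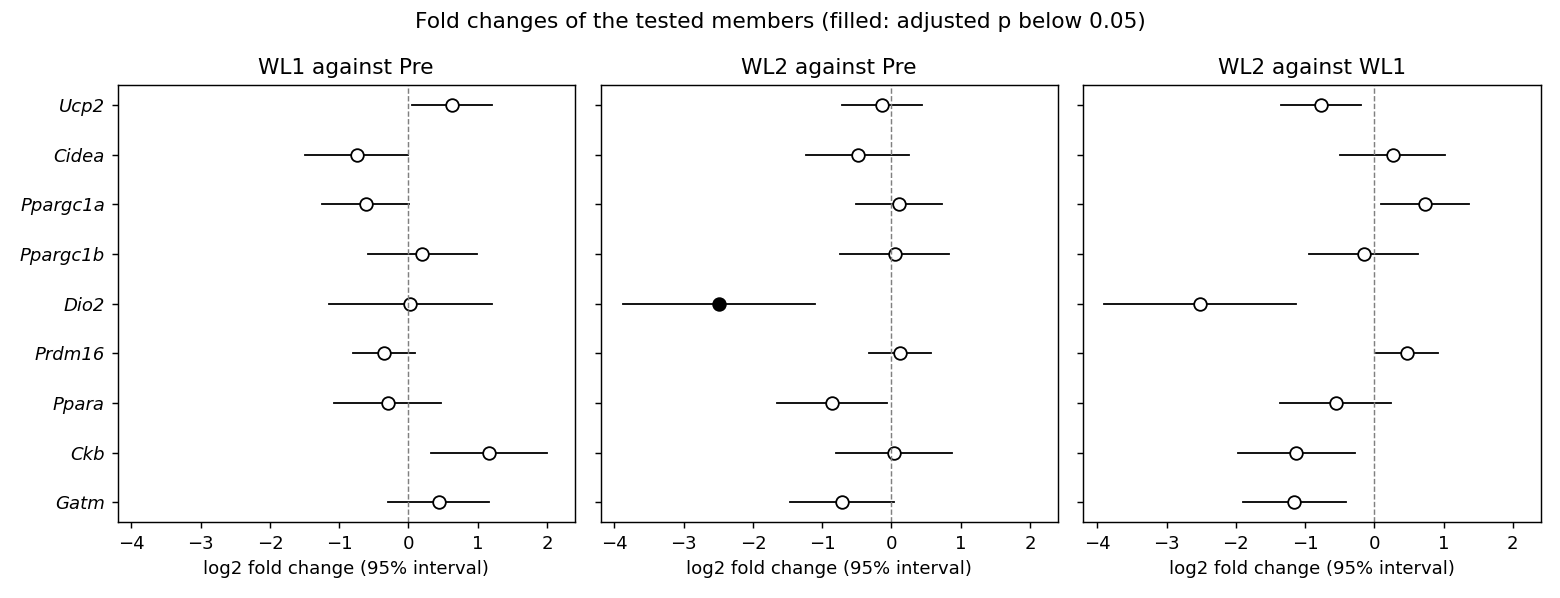
Log2 fold change (x axis) of the 9 tested genes in the 3 comparisons, from edgeR, with 95% intervals as lines. The filled point is the 1 value with an adjusted p under 0.05, *Dio2* at WL2 against Pre (-2.49), and *Ckb* (1.16) is the highest value at WL1 against Pre.

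*Dio2* encodes the type II deiodinase, which converts thyroxine to active triiodothyronine inside the cell (ENSMUSG00000007682, chromosome 12, 90691326 to 90705812 on the minus strand in the authors' table). Its transcript was rare before weight loss and rarer after 2 weeks of it. The Pre libraries held 10, 14 and 27 reads, the WL1 libraries 14, 15 and 22 reads, and the WL2 libraries 2, 5 and 1 reads. These correspond to 0.589, 0.771 and 1.25 CPM at Pre, 0.760, 0.688 and 1.24 CPM at WL1, and 0.109, 0.283 and 0.0579 CPM at WL2. Every WL2 library lay below every library of the other phases, and Pre and WL1 overlapped. The gene passed the filter of 0.5 CPM through its Pre and WL1 libraries. Relative to Pre, the log2 fold change at WL2 was -2.49 (SE 0.63, 95% interval -3.88 to -1.10, edgeR adjusted p = 0.0329). The 8 reads of WL2 against the 51 of Pre gave a ratio of 0.167, with an exact interval of 0.0686 to 0.355 that covers counting error only. At WL2 against WL1 the difference was as large (-2.52, SE 0.63) but missed the threshold (adjusted p = 0.0550), and at WL1 against Pre it was 0.028 (SE 0.53). With 8 reads behind the low group, the call at WL2 against Pre was sensitive to single libraries. It was lost without Pre replicate 3 (adjusted p = 0.0924), WL1 replicate 2 (0.0504), WL2 replicate 1 (0.0915) or WL2 replicate 3 (0.109), and the log2 fold change ranged from -3.28 to -2.12 over the 9 fits that left out 1 library each. It was also lost with the replicate number as a block (-2.43, adjusted p = 0.0663), in a fit of the 2 phases alone (adjusted p = 0.0714) and with limma on log2(FPKM + 1) (adjusted p = 0.138), while DESeq2 called it. An antisense long noncoding gene, *Gm26512*, overlaps *Dio2* in the authors' table over 838 bases and had 8 reads in all 9 libraries.

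The *Dio2* promoter is shown because the gene carries the 1 call among the 10 and is a textbook target of cAMP. The window is the 250 bases before the gene start in RefSeq on GRCm38.p6, chr12:90739039-90739288, minus strand, written 5′ to 3′. Capitals mark the full cAMP response element TGACGTCA, which begins 95 bases before the gene start and reads the same on both strands.
Dio2: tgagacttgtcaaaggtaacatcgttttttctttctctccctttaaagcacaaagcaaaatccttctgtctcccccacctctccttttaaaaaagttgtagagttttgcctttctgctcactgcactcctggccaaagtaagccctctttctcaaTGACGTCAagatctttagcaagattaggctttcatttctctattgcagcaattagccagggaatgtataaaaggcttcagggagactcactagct
This 8-base element was present in the same window of 1.55% of 32851 mouse promoters. Its shorter form TGACG was searched on both strands, lies inside the full element and was present in 17.8% of promoters. A TATA box of the letters TATAAA began 30 bases before the gene start (12.4% of promoters hold it). The match is a description of the letters and no measurement of binding.

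Of 8 other genes of thyroid hormone handling, 6 were tested and 1 changed, *Thrsp*, a lipogenic gene that responds to thyroid hormone and carbohydrate. It fell from 620.0 ± 97.3 CPM (SD, n = 3) at Pre to 197 ± 42.5 CPM at WL1 (log2 fold change -1.65, adjusted p = 0.000666) and stood at 382 ± 3.17 CPM at WL2, lower than at Pre (-0.70, adjusted p = 0.0246) and higher than at WL1 (0.95, adjusted p = 0.0182). The other 5, which include the receptors *Thra* and *Thrb* and the transporter *Slc16a10*, did not pass the test in any comparison. The median log2 fold change of the 6 was -0.0096 and 0.20 in the comparisons of WL1 and WL2 with Pre. *Thrsp* thus followed a course unlike that of *Dio2*, with its lowest libraries at WL1. The call of *Thrsp* at WL2 against Pre was lost in 4 of the 9 fits that left out 1 library and under the replicate block.

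*Ucp1*, the uncoupling protein of brown fat (ENSMUSG00000031710, chromosome 8, 84016981 to 84025081, plus strand), was at the edge of detection in every phase. The Pre libraries held 0, 1 and 3 reads, the WL1 libraries 3, 1 and 5, and the WL2 libraries 1, 1 and 3. The library with 0 reads allows up to 0.177 CPM, the level of 3 reads at its depth. The highest library, WL1 replicate 3, stood at 0.281 CPM, so the gene was below the filter and was not tested. The ratio of summed reads was 2.20 for WL1 over Pre (exact counting interval 0.615 to 9.79), 1.33 for WL2 over Pre (0.287 to 6.72) and 0.606 for WL2 over WL1 (0.159 to 2.01). A difference between phases was not detectable at this depth.

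Other genes typical of brown and beige adipocytes differed widely in level, and those that changed were lower after weight loss. Of 20 such genes, 17 were tested. At WL1 against Pre, 0 were higher and 1 lower (*Cox8b*), at WL2 against Pre 0 were higher and 4 lower (*Kcnk3*, *Otop1*, *Cox8b* and *Cox7a1*), and at WL2 against WL1 0 were higher and 1 lower (*Otop1*). Over all genes, 4.69%, 6.66% and 2.37% were called lower and 2.60%, 3.35% and 1.31% higher in these comparisons, in the same order. The medians of the 17 were -0.36, -0.53 and -0.63. *Kcnk3*, a potassium channel of thermogenic and other cells, fell from 80.1 ± 18.7 CPM at Pre to 37.4 ± 1.86 CPM at WL2 (log2 fold change -1.10, adjusted p = 0.00242). *Otop1*, a proton channel found in brown fat, fell from 9.86 to 13.7 CPM at Pre to 0.752 to 1.97 CPM at WL2 (-2.90, adjusted p = 0.00254), and both calls held in all 9 fits that left out 1 library. *Cox8b*, a cytochrome c oxidase subunit of muscle and brown fat, fell from 9.32 ± 2.10 CPM at Pre to 2.29 ± 1.50 CPM at WL1 (-2.03, adjusted p = 0.0156) and 2.47 ± 0.443 CPM at WL2 (-1.91, adjusted p = 0.0138). *Cox7a1*, another oxidase subunit of muscle and brown fat, fell to 1.20 ± 0.141 CPM at WL2 from 3.96 ± 1.14 CPM at Pre (-1.71, adjusted p = 0.0206). The call of *Otop1* at WL2 against WL1 (-1.81, adjusted p = 0.0495) held in 3 of 9 such fits and in 3 of the 9 other settings tried. *Cox8b* at WL1 was lost without Pre replicate 1 or WL1 replicate 2, *Cox8b* at WL2 without WL2 replicate 2 or 3, and *Cox7a1* without Pre replicate 1, WL2 replicate 2 or WL2 replicate 3 and under the replicate block. *Zic1*, a transcription factor of classical brown fat, had 0 reads in all libraries.

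One skeletal muscle transcript, *Acta1*, fell in the same comparison as *Cox8b*, and the other muscle genes did not share its fall. The summed level of 8 muscle genes was 31.2 to 47.4 CPM at Pre, 8.49 to 15.8 CPM at WL1 and 9.79 to 27.8 CPM at WL2. At Pre most of this was *Acta1*, skeletal muscle actin, which stood at 38.7 ± 8.62 CPM at Pre and 7.29 ± 4.06 CPM at WL1 (log2 fold change -2.41, adjusted p = 0.0131). It was the 1 muscle gene of 6 tested that changed at WL1 against Pre, and 2 defining muscle genes, *Myh4* and *Tnnc2*, had 0 reads in all libraries. The other 5 tested muscle genes had log2 fold changes above 0 at WL1 and none passed the test, so the median of the 6 was 0.33. *Actn3*, a structural protein of fast muscle fibres, stood at 1.01 CPM at Pre and 1.42 CPM at WL1. At WL2 against Pre 0 of 6 were called, and 4 of 6 were above 0 with a median of 0.44. Smooth muscle also expresses *Kcnk3*, and 4 smooth muscle genes summed to 375 to 485 CPM at Pre, 183 to 239 CPM at WL1 and 209.7 to 263 CPM at WL2, none at 0 in any library. Most of the difference was *Acta2*, smooth muscle actin, the 1 gene of the 4 that was called, which fell from 350.1 to 374 CPM at Pre to 133 to 160.3 CPM at WL1 (-1.28, adjusted p = 0.000532) and 155 to 198 CPM at WL2 (-1.06, adjusted p = 0.000560). *Myh11*, the smooth muscle myosin, stood at 63.1 ± 42.2, 55.9 ± 18.5 and 51.8 ± 8.52 CPM in the 3 phases, and *Tagln*, an actin-binding protein, at 1.58, 2.07 and 2.57 CPM. The remaining gene of the 4, *Cnn1*, had lower means after weight loss without a call. It stood at 4.43 ± 2.17, 1.36 ± 1.03 and 2.22 ± 0.0411 CPM, and the phases overlapped. The part of muscle RNA in the values of *Cox8b*, *Cox7a1* and *Kcnk3* was not tested.

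*Ucp2* encodes an inner membrane carrier related to UCP1 (ENSMUSG00000033685, chromosome 7, 100142544 to 100151227, plus strand). The libraries of Pre stood at 461, 746 and 560.0 CPM, those of WL1 at 698, 824 and 1213 CPM, and those of WL2 at 714, 418 and 471 CPM. The WL1 libraries were high and WL2 replicate 1 reached their range, so that all 3 phases overlapped. The log2 fold change was 0.63 at WL1 against Pre (SE 0.26, adjusted p = 0.174), -0.77 at WL2 against WL1 (SE 0.26, adjusted p = 0.122) and -0.14 at WL2 against Pre (SE 0.26, adjusted p = 0.768). With DESeq2 the value at WL2 against WL1 was called (-0.76, adjusted p = 0.0359), and without WL2 replicate 1 it was -1.04 and passed (edgeR adjusted p = 0.0434).

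Related carriers behaved in their own ways. Of 8 other uncoupling proteins, adenine nucleotide carriers and *Pm20d1*, 7 were tested. At WL1 against Pre 0 were higher and 2 lower, at WL2 against Pre 0 were higher and 1 lower, and at WL2 against WL1 1 was higher and 0 lower, with medians of -0.20, 0.11 and 0.20. *Pm20d1*, an enzyme that joins fatty acids and amino acids into lipids that uncouple mitochondria, fell from 15.2 ± 1.08 CPM at Pre to 4.79 ± 0.377 CPM at WL1 (log2 fold change -1.67, adjusted p = 0.00135) and 4.33 ± 1.18 CPM at WL2 (-1.81, adjusted p = 0.000438). *Ucp3*, the relative most known from muscle, fell from 34.8 ± 6.52 CPM at Pre to 18.5 ± 3.22 CPM at WL1 (-0.91, adjusted p = 0.0113). At WL2 it stood at 37.5 ± 1.85 CPM, higher than at WL1 (1.02, adjusted p = 0.0133). The calls against Pre held in all 9 fits that left out 1 library, and the rise of *Ucp3* at WL2 was lost without WL2 replicate 2 or 3. The abundant nucleotide carriers *Slc25a4* (190.4 to 250.2 CPM as phase means) and *Slc25a5* (206 to 254 CPM) did not pass the test in any comparison.

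*Ckb*, the cytosolic creatine kinase (ENSMUSG00000001270, chromosome 12, 111635795 to 111638772, minus strand), had the largest difference among the 9 genes at WL1 against Pre. Its level was 121, 173 and 125 CPM in the Pre libraries, 212, 266 and 460.3 CPM in those of WL1, and 237, 95.4 and 96.8 CPM in those of WL2. Every WL1 library exceeded every Pre library, and at WL2 replicate 1 stood within the WL1 range while the other 2 lay below Pre. At WL1 the log2 fold change over Pre was 1.16 (SE 0.38, 95% interval 0.32 to 2.00) and missed the threshold (adjusted p = 0.0941), as did that at WL2 against WL1 (-1.13, SE 0.38, adjusted p = 0.119). At WL2 against Pre it was 0.037 (SE 0.38). Both of the larger values passed in the fit without WL2 replicate 1, at 1.16 (adjusted p = 0.0276) and -1.70 (adjusted p = 0.0142).

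*Gatm*, glycine amidinotransferase, makes the precursor of creatine (ENSMUSG00000027199, chromosome 2, 122424948 to 122441784, minus strand). The Pre libraries stood at 8.08, 19.6 and 11.7 CPM, the WL1 libraries at 13.2, 14.6 and 25.4 CPM and the WL2 libraries at 9.69, 6.62 and 7.58 CPM. All WL2 libraries lay below all WL1 libraries, and Pre overlapped with both. The log2 fold change was -1.15 at WL2 against WL1 (SE 0.34, 95% interval -1.90 to -0.40, adjusted p = 0.0845), 0.44 at WL1 against Pre (SE 0.33, adjusted p = 0.452) and -0.72 at WL2 against Pre (SE 0.34, adjusted p = 0.211). At WL2 against WL1 the test was passed with DESeq2 (adjusted p = 0.0136), in the fit of these 2 phases alone (0.0462) and without Pre replicate 2 (0.0403). When 1 library was left out, the value at WL1 against Pre was lowest without WL1 replicate 3 (0.082) and highest without Pre replicate 2 (0.84).

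Other genes of the creatine cycle moved in opposite directions. Of 6, 4 were tested, with 1 higher and 1 lower at WL1 against Pre, 0 higher and 1 lower at WL2 against Pre and 0 called at WL2 against WL1. Their medians were -0.71, -0.15 and 0.020. *Slc6a8*, the creatine transporter of the plasma membrane, rose from 44.4 ± 6.29 CPM at Pre to 131 ± 41.5 CPM at WL1 (log2 fold change 1.56, adjusted p = 0.0180), a call lost without Pre replicate 1 or WL1 replicate 3. It stood at 65.6 ± 32.0 CPM at WL2. WL1 replicate 3 (178 CPM) was its highest library, and WL2 replicate 1 (102 CPM) was the highest of WL2. The macrophage genes given below were highest in the same libraries. The part of macrophage RNA in the value of *Slc6a8* was not tested. *Gamt*, the methyltransferase that follows GATM and completes creatine, fell from 92.9 ± 4.05 CPM at Pre to 38.7 ± 7.53 CPM at WL1 (-1.26, adjusted p = 0.000923) and 38.2 ± 1.93 CPM at WL2 (-1.28, adjusted p = 0.000408), in all 9 fits that left out 1 library. *Alpl*, the phosphatase proposed to act on phosphocreatine, did not pass the test (6.88 to 10.4 CPM as phase means). *Ckm* and *Ckmt2*, the muscle isoforms of creatine kinase, were below the filter.

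*Ucp2*, *Ckb* and *Gatm* varied together across libraries, and macrophage transcripts varied with them. Over the 9 libraries, which include the 3 phases, Pearson's r of log2 CPM was 0.970 for *Ucp2* and *Ckb*, 0.919 for *Ucp2* and *Gatm* and 0.818 for *Ckb* and *Gatm*. The summed level of 10 macrophage genes, none of which was at 0 in any library, was 1615, 2948 and 2757 CPM at Pre, 4131, 4888 and 8609.7 CPM at WL1, and 4555, 1973 and 2179.7 CPM at WL2. WL1 replicate 3 was thus highest for the macrophage genes and for all 3 genes, and WL2 replicate 1 was the highest of its phase for each of them. Pre replicate 2 was likewise the highest of its phase for each, and it is the library with 163 CPM of lymphocyte genes. Of the 10 macrophage genes, 2 were called at WL1 against Pre, both higher. These were *Gpnmb* (465 ± 171 to 2280.1 ± 1129.6 CPM, adjusted p = 0.0375) and *Trem2* (76.3 ± 19.0 to 272 ± 115 CPM, adjusted p = 0.0490), both known from lipid-laden macrophages. Of the 10, 9 had log2 fold changes above 0 at WL1 against Pre, by unlike amounts. *Lyz2* went from 1118 to 1855 CPM and *Csf1r* from 273 to 402 CPM, whereas *Cd163* went from 59.8 to 45.0 CPM. *Gpnmb* and *Lyz2* were the largest parts of the sum, so values scaled to it follow these genes most. Per 1000 CPM of the summed macrophage genes, *Ckb* stood at 45.3 to 74.6 CPM at Pre, 51.3 to 54.4 CPM at WL1 and 44.4 to 52.1 CPM at WL2. On the same scale *Ucp2* was at 203 to 286 CPM at Pre, 141 to 169 CPM at WL1 and 157 to 216 CPM at WL2, and *Gatm* was at 4.23 to 6.63, 2.95 to 3.21 and 2.13 to 3.48 CPM. The part of macrophage or lymphocyte RNA in the values of the 3 genes was not tested. Within a library, *Ckb* reached 0.538 to 0.631 of the FPKM of *Ucp2* at Pre and 0.733 to 0.916 at WL1. At WL2 this ratio was 0.803 in replicate 1 and 0.551 and 0.496 in the others.

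**Figure D3:**
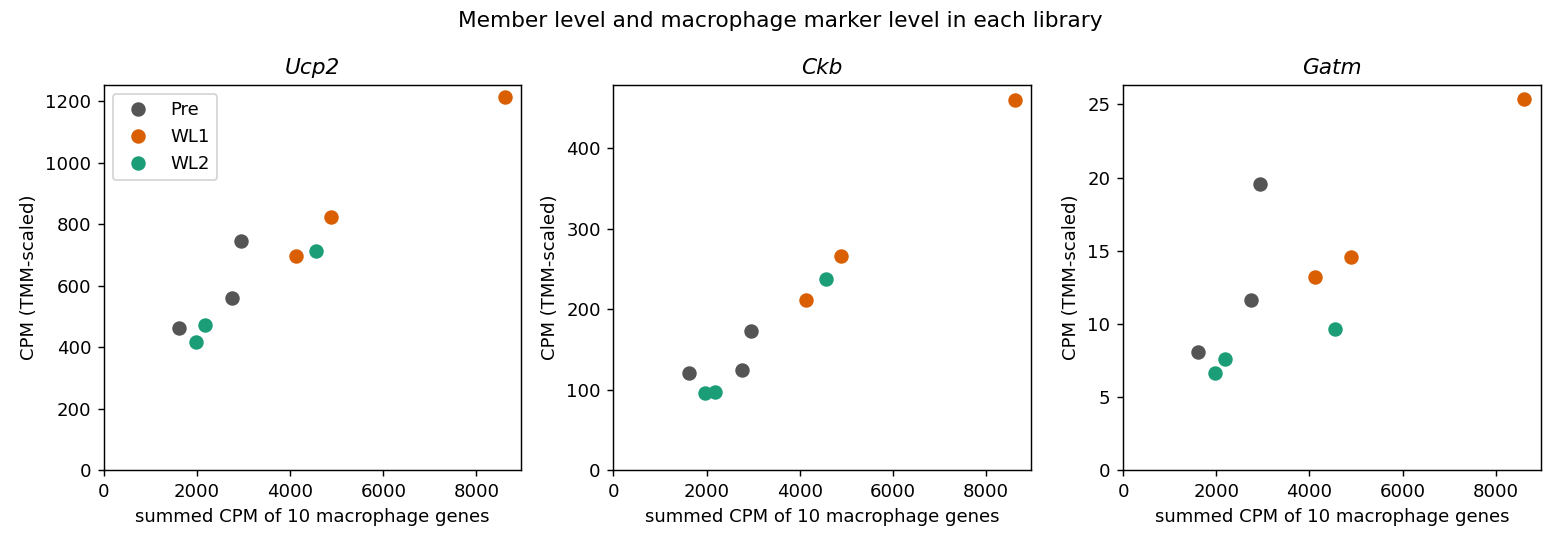
Level of *Ucp2*, *Ckb* and *Gatm* (y axis, CPM) against the summed level of 10 macrophage genes (x axis, CPM) in the 9 libraries, on linear axes starting at 0. Each point is 1 library, coloured by phase. The library with 8609.7 CPM of macrophage genes, WL1 replicate 3, is highest in every panel.

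The promoters of these 3 genes are shown because their levels varied together. The windows are the 250 bases before the gene start in RefSeq on GRCm38.p6, 5′ to 3′, at chr7:100493108-100493357, plus strand, for *Ucp2*, at chr12:111672339-111672588, minus strand, for *Ckb*, and at chr2:122611278-122611527, minus strand, for *Gatm*. Capitals mark the shorter part of the cAMP response element (TGACG, here on the other strand as CGTCA) in *Ucp2* and CCAAT boxes (CCAAT, on the other strand ATTGG) in *Ckb* and *Gatm*.
Ucp2: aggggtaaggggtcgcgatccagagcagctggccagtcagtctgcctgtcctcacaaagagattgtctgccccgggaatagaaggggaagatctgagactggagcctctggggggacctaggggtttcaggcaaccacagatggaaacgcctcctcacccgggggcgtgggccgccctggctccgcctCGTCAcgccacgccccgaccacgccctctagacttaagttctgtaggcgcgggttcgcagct
Ckb: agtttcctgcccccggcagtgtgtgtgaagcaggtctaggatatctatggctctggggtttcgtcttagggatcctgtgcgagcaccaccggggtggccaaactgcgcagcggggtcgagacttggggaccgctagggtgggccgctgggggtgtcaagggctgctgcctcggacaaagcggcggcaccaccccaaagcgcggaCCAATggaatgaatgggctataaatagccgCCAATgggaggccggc
Gatm: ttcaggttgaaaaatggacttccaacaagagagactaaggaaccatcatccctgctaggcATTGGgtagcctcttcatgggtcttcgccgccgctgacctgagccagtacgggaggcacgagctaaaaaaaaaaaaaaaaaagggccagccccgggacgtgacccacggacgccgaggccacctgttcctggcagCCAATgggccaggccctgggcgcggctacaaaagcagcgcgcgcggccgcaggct
The shorter element of *Ucp2* begins 62 bases before the gene start and is found in 17.8% of the 32851 promoters. *Ckb* and *Gatm* each hold 2 CCAAT boxes, which 33.9% of promoters have at least once, and *Ucp2* holds none in these letters. The boxes lie 46 and 16 bases before the start of *Ckb* and 190 and 55 bases before that of *Gatm*. *Ckb* also has the letters TATAAA 28 bases before its start, and *Gatm* has 1 nuclear receptor site (AGGTCA, either strand, in 14.0% of promoters). No motif of the 5 searched was present in all 3 windows. In the 8 promoters found for the 10 genes, the full TGACGTCA was present in *Dio2* alone.

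*Cidea* encodes a lipid droplet protein of brown adipocytes that enlarges droplets (ENSMUSG00000024526). It stood at 2.48, 3.41 and 1.75 CPM at Pre, at 1.52, 1.33 and 1.69 CPM at WL1, and at 2.35, 1.76 and 1.33 CPM at WL2. The WL1 libraries lay below those of Pre by a narrow margin, and WL2 overlapped with both. Relative to Pre, the log2 fold change of -0.75 at WL1 (SE 0.34, adjusted p = 0.205) and of -0.48 at WL2 (SE 0.33, adjusted p = 0.388) did not pass the test. An antisense long noncoding gene, *B430212C06Rik*, overlaps *Cidea* over 500 bases and had 930 reads in all against 326 of *Cidea*. The strand setting of the counting is not given, so reads from the overlap cannot be assigned. A relative of *Cidea*, *Cidec*, which enlarges the single droplet of white adipocytes, was far more abundant and fell. It went from 5105 ± 361 CPM at Pre to 2854 ± 225 CPM at WL1 (-0.84, adjusted p = 0.00236) and 3214 ± 98.4 CPM at WL2 (-0.67, adjusted p = 0.00456), in all 9 fits that left out 1 library. With limma on log2 FPKM, the call at WL2 was lost at both pseudocounts and that at WL1 with a pseudocount of 0.1. *Cidec* is also 1 of the 10 adipocyte genes, of which 4 were lower at WL1 than at Pre and 0 higher. The third family gene, *Cideb*, was below the filter.

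*Ppargc1a* and *Ppargc1b* encode the coactivators PGC-1alpha and PGC-1beta, which raise mitochondrial gene expression. *Ppargc1a* (ENSMUSG00000029167, chromosome 5, 51611592 to 51725068, minus strand) stood at 2.83, 2.04 and 2.03 CPM at Pre, 1.14, 1.70 and 1.63 CPM at WL1 and 2.19, 2.60 and 2.66 CPM at WL2. Its WL1 libraries were all lower than those of Pre and of WL2, which overlapped each other. Neither the value at WL1 against Pre (log2 fold change -0.62, SE 0.28, adjusted p = 0.213) nor that at WL2 against WL1 (0.73, SE 0.28, adjusted p = 0.169) passed the test, and at WL2 against Pre the value was 0.11 (SE 0.28). *Ppargc1b* (ENSMUSG00000033871) stood at 2.83, 1.98 and 2.40 CPM at Pre, 2.66, 2.11 and 3.54 CPM at WL1 and 2.79, 1.36 and 3.30 CPM at WL2. The phases overlapped, and the log2 fold changes were 0.20 (SE 0.35, 95% interval -0.58 to 0.98), 0.047 (SE 0.35, -0.74 to 0.83) and -0.15 (SE 0.35, -0.94 to 0.63) for WL1 against Pre, WL2 against Pre and WL2 against WL1.

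Among 19 partners and relatives of the coactivators, 18 were tested. At WL1 against Pre 2 were higher and 2 lower, at WL2 against Pre 2 were higher and 2 lower, and at WL2 against WL1 1 was higher and 0 lower, with medians of -0.0072, 0.054 and 0.059. *Perm1*, a regulator of oxidative genes induced by PGC-1, rose from 3.09 ± 0.680 CPM at Pre to 11.7 ± 5.91 CPM at WL1 (log2 fold change 1.91, adjusted p = 0.0174), a call lost without Pre replicate 1 or WL1 replicate 3. WL1 replicate 3 (18.4 CPM) was its highest library and WL2 replicate 1 (6.29 CPM) the highest of WL2, as for the macrophage genes. The part of macrophage RNA in the value of *Perm1* was not tested. *Prkaa2*, a catalytic subunit of the energy sensor AMPK, fell from 8.79 ± 0.532 CPM at Pre to 4.57 ± 0.0375 CPM at WL1 (-0.94, adjusted p = 0.0169), and this call was lost without any 1 of the WL1 libraries. *Rxra*, the nuclear receptor that pairs with the PPARs, fell from 290.3 ± 27.3 CPM to 203 ± 20.9 CPM at WL1 (-0.52, adjusted p = 0.0257) and 191 ± 6.51 CPM at WL2 (-0.61, adjusted p = 0.00905). The call of *Rxra* at WL2 held in all 9 fits that left out 1 library, that at WL1 in 4. *Ncor1*, a corepressor of nuclear receptors, rose from 130.5 ± 15.5 CPM to 187 ± 22.8 CPM at WL1 (0.52, adjusted p = 0.0353, held in 3 of 9 fits) and 200.2 ± 7.98 CPM at WL2 (0.62, adjusted p = 0.0132, held in 7). *Esrra*, a receptor that works with PGC-1alpha, fell from 58.9 ± 3.90 to 40.3 ± 4.58 CPM at WL2 (-0.55, adjusted p = 0.0274, held in 4). The deacetylase *Sirt1* rose at WL2 against Pre (0.46, adjusted p = 0.0439, held in 1), and *Pparg*, the master regulator of adipocytes, rose from 156 ± 14.9 CPM at WL1 to 226 ± 25.0 CPM at WL2 (0.54, adjusted p = 0.0456, held in 3). Under other settings, *Rxra* at WL1, *Ncor1* at WL1 and *Sirt1* were not called in the fit of the compared phases alone, *Rxra* at WL1 and *Esrra* with library totals alone, *Sirt1* and *Pparg* with limma, *Sirt1* without a filter, and *Ncor1* at WL1, *Esrra*, *Sirt1* and *Pparg* with the replicate block. The calls in this group therefore ran in both directions, and most depended on single libraries.

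*Prdm16*, a zinc finger regulator that drives the brown fat program (ENSMUSG00000039410, chromosome 4, 154400582 to 154721330, minus strand), was the best measured of the 10 genes' transcription regulators. It stood at 15.6, 11.4 and 11.3 CPM at Pre, 12.6, 8.26 and 8.99 CPM at WL1 and 15.2, 11.8 and 14.6 CPM at WL2. The phases overlapped, with 2 of the WL1 libraries lowest. The log2 fold change was -0.36 at WL1 against Pre (SE 0.20, adjusted p = 0.308), 0.12 at WL2 against Pre (SE 0.20, 95% interval -0.32 to 0.57) and 0.48 at WL2 against WL1 (SE 0.20, adjusted p = 0.205).

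All 20 genes listed as regulators of the brown program were tested. One was higher (*Ctbp2*) and 1 lower (*Zfp423*) at WL1 against Pre, 2 were higher and 2 lower at WL2 against Pre, and 0 were called at WL2 against WL1, with medians of -0.16, 0.024 and 0.013. *Zfp423*, a factor that holds white adipocytes in the white state, fell from 81.0 ± 8.18 CPM at Pre to 54.5 ± 7.53 CPM at WL1 (log2 fold change -0.57, adjusted p = 0.0240) and 41.3 ± 1.37 CPM at WL2 (-0.97, adjusted p = 0.00105). The call at WL2 held in all 9 fits that left out 1 library and that at WL1 in 5. *Nfia*, a factor that opens brown fat enhancers, rose from 68.6 ± 7.72 CPM at Pre to 102 ± 6.99 CPM at WL2 (0.58, adjusted p = 0.0182, held in 6), and *Klf11*, which acts with the PPARs, rose from 28.7 ± 6.54 to 44.4 ± 2.86 CPM (0.63, adjusted p = 0.0313, held in 3). *Tle3*, a corepressor that competes with PRDM16, fell from 214 ± 5.38 to 147 ± 20.2 CPM at WL2 (-0.55, adjusted p = 0.0215, held in 6). *Ctbp2*, a corepressor that binds PRDM16, rose from 23.1 ± 0.725 to 31.8 ± 0.853 CPM at WL1 (0.46, adjusted p = 0.0196, held in 5). *Klf11* and *Ctbp2* were also lost in the fit of the compared phases alone, *Tle3* with library totals alone, and *Zfp423* at WL1 with the replicate block.

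*Ppara* itself was low (ENSMUSG00000022383, chromosome 15, 85619184 to 85687020, plus strand), at 2.53, 2.37 and 1.29 CPM at Pre, 1.68, 2.02 and 1.29 CPM at WL1, and 1.04, 0.962 and 1.39 CPM at WL2. The WL2 libraries were low, and 1 library each of Pre and WL1 stood among them. The log2 fold change was -0.86 at WL2 against Pre (SE 0.36, 95% interval -1.66 to -0.063, adjusted p = 0.162), -0.30 at WL1 against Pre (SE 0.35) and -0.56 at WL2 against WL1 (SE 0.36), none past the threshold.

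Several target genes of PPAR-alpha rose while the receptor transcript did not. All 18 were tested, with 4 higher and 1 lower at WL1 against Pre, 4 higher and 0 lower at WL2 against Pre and 0 higher and 1 lower at WL2 against WL1. The medians were 0.34, -0.27 and -0.34, so most of the list did not share the rise at WL2. *Pdk4*, the kinase that shuts off pyruvate oxidation, rose from 80.4 ± 19.9 CPM to 259 ± 66.3 CPM at WL1 (log2 fold change 1.69, adjusted p = 0.00453) and 207 ± 56.1 CPM at WL2 (1.36, adjusted p = 0.00794). *Vnn1*, a pantetheinase that recycles a precursor of coenzyme A, rose from 5.94 ± 0.976 CPM to 26.0 ± 5.13 CPM at WL1 (2.13, adjusted p = 0.000730) and 24.2 ± 6.12 CPM at WL2 (2.03, adjusted p = 0.000416). These 4 calls held in all 9 fits that left out 1 library. For *Pdk4*, WL1 replicate 3 (331 CPM) was the highest library and WL2 replicate 1 (260.5 CPM) the highest of WL2, as for the macrophage genes. The part of macrophage RNA in the value of *Pdk4* was not tested. *Acot1*, an acyl-CoA thioesterase, rose at WL1 (1.45, adjusted p = 0.0186, held in 5 fits), and its relative *Acot2* rose at WL2 against Pre (0.74, adjusted p = 0.0367, held in 1, and lost in the fit of the compared phases alone). *Cpt1a*, which admits fatty acids to mitochondria, fell from 197 ± 23.7 CPM at WL1 to 120.5 ± 14.4 CPM at WL2 (-0.71, adjusted p = 0.0250, held in 5).

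Of the beta-adrenergic receptors that start the thermogenic response, *Adrb3*, the receptor of adipocytes, was higher after 2 weeks. It stood at 492 ± 58.1 CPM at Pre, 319.8 ± 112 CPM at WL1 and 963 ± 137 CPM at WL2 (log2 fold change 0.97 against Pre, adjusted p = 0.0301, and 1.59 against WL1, adjusted p = 0.0111). *Dio2* was lowest in these same WL2 libraries, with 8 reads in all, and a link between *Adrb3* and *Dio2* was not tested. The call of *Adrb3* against Pre was lost without any 1 library of Pre or WL2, and that against WL1 without WL2 replicate 2.

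Calcium cycling is another proposed source of heat that does not need UCP1. Of 9 genes of calcium pumps, channels and their regulators, 6 were tested and 0 passed in any comparison, with medians of 0.015, -0.12 and -0.024. The most abundant were the pump *Atp2a2* (187 to 218 CPM as phase means, with log2 fold changes of 0.068 and -0.15 at WL1 and WL2 against Pre) and the pump *Atp2a3* (161 to 219 CPM, -0.44 and -0.088).

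**Figure D4:**
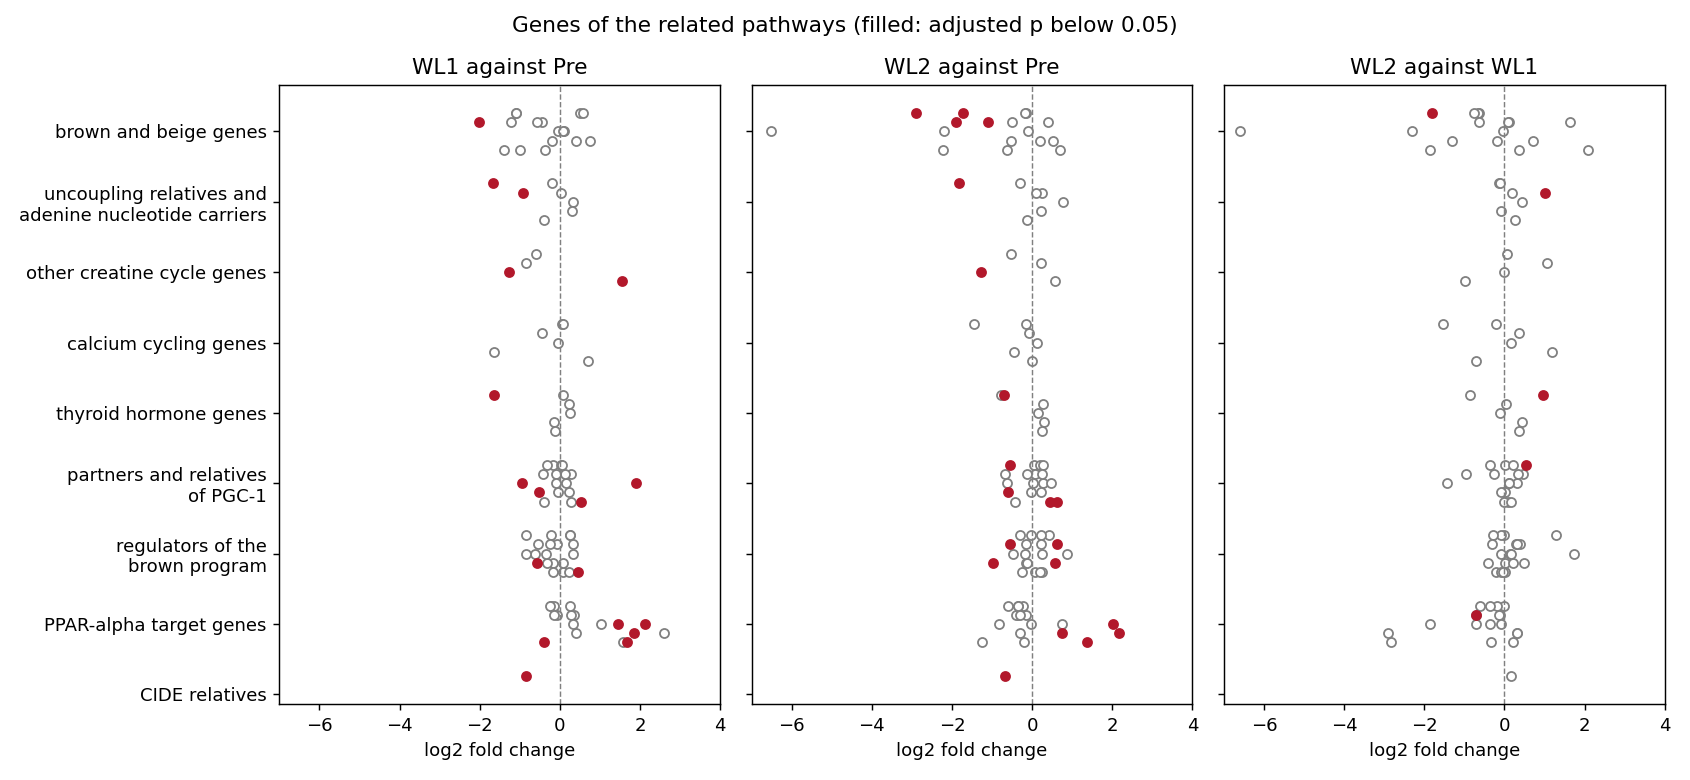
Log2 fold change (x axis) of each tested gene in 9 lists of related genes, 1 panel per comparison, with filled red points for an adjusted p under 0.05. Points are spread vertically within a list only to keep them apart. The brown and beige genes past the threshold all lie left of 0, and *Vnn1* lies near 2 in both comparisons with Pre (2.13 and 2.03). The points below -6 are *Slc27a2*, named here after its values were seen because it had 0 reads in every WL2 library, and its fitted value is no bound. Its Pre libraries held 1, 14 and 21 reads and its WL1 libraries 34, 1 and 1. The hepatocyte genes summed to 11.9, 60.1 and 98.8 CPM at Pre and 93.1, 4.04 and 11.7 CPM at WL1. The part of hepatocyte RNA in the value of *Slc27a2* was not tested.

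The genes whose levels followed each member most closely over the 9 libraries were taken from 13055 protein-coding genes whose mean reached 1 CPM, and r is given as a description over libraries that include the 3 phases. For *Ucp2* they were *Snx8* (r = 0.994) and *Emp3* (0.994), for *Ckb* *Capg* (0.990) and *Sdc1* (0.989), and for *Gatm* *Arap1* (0.990) and *Gpr34* (0.989). None of these 6 passed the threshold in any comparison. The partners of the low genes had lower r. They were *Abhd4* (0.941) and *Tbl3* (0.919) for *Cidea*, *Nars2* (0.970) and *Noa1* (0.957) for *Ppargc1a*, *Slc7a4* (0.910) and *B3gat2* (0.856) for *Ppargc1b*, *Lca5l* (0.905) and *Cdyl* (0.900) for *Prdm16*, and *Mb21d2* (0.943) and *Ap3b2* (0.928) for *Ppara*. Both partners of *Ppara* were lower at WL2 than at Pre (log2 fold changes -0.71 and -1.17, adjusted p = 0.0415 and 0.0440). *Dio2* had a mean below 1 CPM and was given no partner. Among the 10 genes, *Ppargc1a* ran against the group of *Ucp2*, *Ckb* and *Gatm*, with r of -0.68, -0.68 and -0.66 over the same 9 libraries, and *Prdm16* had similar values of -0.65, -0.58 and -0.68.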

How the data were processed

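RNA was measured by sequencing in 9 libraries, 3 each of Pre, WL1 and WL2, grouped by the sample labels. The authors deposited whole-number counts per gene without normalization and FPKM values per gene, both for 56748 genes. For the counting program, annotation and strand setting, the sources used here give nothing. The submitters' processing notes list HISAT2, HISAT, TopHat2, CASAVA, GRCm38 and mm10 without a role. Comparing 52125 genes with GENCODE M21 (GRCm38), coordinates were identical for 1524 (0 of the 10 described), so gene coordinates are those of the authors' table, without a build. Columns that matched no sample numbered 0.

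The test on counts was the quasi-likelihood test of edgeR 4.0.16 (R 4.3.3), with TMM factors and a single model of all 9 libraries without covariates. It covered the 18510 genes that reached 0.5 CPM in 1 library or more. P-values were adjusted by Benjamini-Hochberg over these genes, with a threshold of 0.05. Each p-value sets a difference between phases against the variation between samples within phases, estimated over all 9 libraries. FPKM served to compare genes within libraries. Alternatives were DESeq2 1.42.0, limma 3.58.1 on log2(FPKM + 1) and log2(FPKM + 0.1), other filters and scaling factors, the compared phases alone, the replicate number as a block, and leaving out each library in turn. They were applied to the called genes of the lists after seeing the data. The fits were tested on simulated data. Libraries of 1 phase were compared pairwise. None were identical, and all differed beyond sampling noise (chi-square over degrees of freedom 9.26 to 49.7).

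The 10 genes, the lists of related and cell type genes and the tests were chosen with earlier results of these data known. Besides the 10, the text names up to 3 called genes with the smallest p per list and comparison, the 2 most abundant of a list without calls, and the 2 protein-coding genes most correlated with each of the 10 (log2 CPM with a prior count of 4). Some genes that this rule picks are not reported here. Other list genes and single marker genes were named after their values were seen. Promoters are from RefSeq (GRCm38.p6), found for 8 of the 10. Counting intervals are exact, at 95%, and cover counting error only.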

Additional observations from a re-analysis of the deposited data

Results flagged for a closer look

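For 6 related genes the difference between the effects of 1 and 2 weeks of SD, each against the same Pre libraries, passed edgeR's quasi-likelihood test, given here as the log2 fold change of WL2 against WL1. It was 1.59 for *Adrb3* (-0.62 at WL1 and 0.97 at WL2 against Pre), 1.02 for *Ucp3* (-0.91 and 0.11), 0.95 for *Thrsp* (-1.65 and -0.70) and 0.54 for *Pparg* (-0.33 and 0.21). It was -1.81 for *Otop1* (-1.09 and -2.90) and -0.71 for *Cpt1a* (0.37 and -0.35). The calls of *Otop1* and *Pparg* each held in 3 of the 9 fits that left out 1 library.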

How the results depend on the processing

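At WL1 against Pre, 1 of the described genes (*Ckb*) passed without a filter, and 0 to 1 when 1 library was left out. At WL2 against Pre, 0 passed in the compared phases alone, with the replicate block, or with limma at either pseudocount, and 0 to 1 when 1 library was left out. At WL2 against WL1, 4 passed without a filter (*Ucp2*, *Dio2*, *Ckb* and *Gatm*), 1 with 0.5 CPM in at least 3 libraries, 3 with DESeq2, 1 in the compared phases alone, and 0 to 2 when 1 library was left out. The cause was not tested. Reversals were all of small values. *Dio2* at WL1 against Pre became -0.0067 with the filter on 3 libraries (leaving out 1 library, -0.28 to 0.39). *Ucp2* at WL2 against Pre became 0.0025 with library totals alone (-0.41 to 0.065). *Ckb* at WL2 against Pre became -0.012 with the block and -0.082 and -0.085 with limma (-0.54 to 0.26). *Ppargc1b* became -0.014 with the block and -0.018 with limma at 0.1 at WL2 against Pre (-0.21 to 0.34), and ranged from -0.023 to 0.37 at WL1 against Pre and from -0.41 to 0.14 at WL2 against WL1 when 1 library was left out. Over all genes, 1350 passed at WL1 against Pre, but 2344 with DESeq2 and 844 with the block. At WL2 against WL1, 681 passed, but 1668 without a filter, 1935 with DESeq2, 1051 in the compared phases alone and 330 with the block. Leaving out 1 library gave 507 to 1490, 746 to 1680 and 37 to 1347 genes in the 3 comparisons. Library totals alone moved the median of all genes to 0.12 and 0.16 against Pre. Correlations of deviations from the phase mean were -0.43 to 0.16 for same-numbered libraries and -0.28 to 0.34 for differently numbered ones. With 3 libraries a phase, these values cannot decide whether the numbers mark a shared litter or day. The block is therefore given as an alternative. At 17.0 to 21.8 reads per CPM, genes below 1 CPM such as *Dio2* and *Ucp1* were limited by counting error.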
